A study of Mus musculus with 4 samples.

Results

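The 7 genes described here are Il4, Il13, Gata3, Il1rl1, Cyp11a1, Cysltr1 and Ecm1, found by name among the 31053 genes of each count matrix. They were followed in T cells that had descended from transferred regulatory T (Treg) cells and in the conventional CD4 and CD8 T cells sequenced beside them. Cell class was read from barcoded antibodies: 1537 Treg-origin cells had a log2 CD45.1/CD45.2 antibody ratio below -0.6, and conventional cells one above 2.2. No Cd4 or Cd8 limit was set on the Treg-origin class, so it can hold cells with Cd8 transcripts or with neither. Conventional cells with more UMIs (unique molecular identifiers, 1 per counted transcript) of Cd4 than of the Cd8 genes made up 11761 CD4 cells, and those with fewer 11015 CD8 cells. Together these classes hold most of the 36140 cells kept; 8404 conventional cells with no or equal Cd4 and Cd8 counts and 3423 cells with a ratio between the cuts were set apart.

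The cells came from a mouse model of graft-versus-host disease, in which donor T cells attack the tissues of the recipient. BALB/c recipients were irradiated with 900 cGy and received T cell-depleted wild-type C57BL/6 bone marrow, which carries both CD45 alleles, together with CD4+ Foxp3-GFP+ CD25hi Treg cells from spleens of CD45.2 mice. Wild-type CD45.1 conventional CD4 and CD8 T cells, depleted of Treg cells, followed 2 days later, and living donor T cells, positive for H-2Kb and TCRb, were taken from spleen by sorting 8 days after induction. The libraries differ in the Treg donor's genotype: CD226-/- TIGIT+/+ (332 Treg-origin, 3098 CD4 and 2600 CD8 cells), CD226+/+ TIGIT-/- (462, 3100 and 2902), CD226-/- TIGIT-/- (376, 2813 and 3415) and CD226+/+ TIGIT+/+, the wild type (367, 2750 and 2098). CD226 is an activating receptor and TIGIT an inhibitory one that bind shared ligands. The conventional cells, marrow and recipients were the same in all libraries. Per the design text each sample pooled 3, with no word on whether these were recipients or donors, and each genotype is 1 library, so no contrast of genotypes can be tested. The descriptions give 1 lane code to the CD226-knockout and wild-type libraries and another to the TIGIT-knockout and double-knockout libraries, so lane and TIGIT status cannot be told apart.

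Il4 and Il13 encode the cytokines that define type 2 immunity, made by T helper 2 (Th2) cells, innate lymphoid cells, basophils and mast cells, and both signal through receptors that contain the IL-4 receptor alpha chain. GATA3 is the transcription factor that opens the Th2 cytokine locus, and it is also needed by Treg cells. Il1rl1 encodes ST2, the receptor for the alarmin IL-33, found on Th2 cells and on Treg cells of mouse tissues. Cyp11a1 encodes the mitochondrial enzyme that cleaves the side chain of cholesterol to give pregnenolone, the first step of steroid synthesis; mouse Th2 cells are known to express it. Cysltr1 encodes a receptor for cysteinyl leukotrienes, the lipid mediators of allergic inflammation, and Ecm1 a secreted glycoprotein that mouse Th2 cells use to leave lymph nodes. Ccr9, against which the genes were set, encodes the chemokine receptor that guides T cells to the small intestine.

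All 7 genes are protein coding, and their coordinates are those of GENCODE M21 on the mm10 build. Il4 (chr11:53602982-53618669, minus strand) and Il13 (chr11:53631324-53634702, minus strand) lie 12655 bases apart with 0 annotated genes between them. Gata3 lies at chr2:9857078-9890034 on the minus strand and overlaps 9230102O04Rik on the same strand. Il1rl1 lies at chr1:40429570-40465415 on the plus strand, and Cyp11a1 at chr9:58006411-58027023 on the plus strand, where it overlaps the noncoding Gm17322. Cysltr1 occupies chrX:106574346-106603679 on the minus strand, with the small nuclear RNA gene Gm24622 inside it. Ecm1 occupies chr3:95734147-95739569 on the minus strand, with the microRNA gene Mir7014 inside it. Ccr9 overlaps the noncoding Gm17200 and the pseudogene Gm17020 on the same strand, and Slc6a20a and Lztfl1, among others, on the opposite strand. How reads shared by overlapping genes were counted is not given in the sources used here. The values of Gata3, Cyp11a1, Cysltr1, Ecm1 and Ccr9 are uncertain to that extent.

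Since GATA3 is itself a member, 250 bases before the start of transcription were searched for 4 spellings of the GATA motif on both strands, which are AGATAA or its form ending in G (AGATAG), and TGATAA or its form ending in G (TGATAG), in RefSeq promoters of build GRCm38.p6. Of 32851 such promoters 26.5% held at least 1 match, and 6 of the 9 promoters listed for 6 of these genes did; Cysltr1 was not matched. The windows of the neighbours Il4 and Il13, of Il1rl1 (5 matches) and of Ecm1 (1 match) are printed 5′ to 3′ on the strand of the gene, ending at the base before the start, with matches in capitals. None of the printed matches overlaps another, and a match is a run of letters, not a bound site. The Il4 window (chr11:53618666-53618915) holds 0 matches, and a second start listed for Il4 has 1.
Il4: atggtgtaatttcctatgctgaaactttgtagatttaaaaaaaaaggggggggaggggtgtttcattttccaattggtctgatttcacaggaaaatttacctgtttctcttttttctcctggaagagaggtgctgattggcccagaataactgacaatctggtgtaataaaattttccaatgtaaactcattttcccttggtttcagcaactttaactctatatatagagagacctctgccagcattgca
The Il13 window (chr11:53634703-53634952) has 1 match, the first Il1rl1 window (chr1:40429320-40429569) 5, and the Ecm1 window (chr3:95739570-95739819) 1.
Il13: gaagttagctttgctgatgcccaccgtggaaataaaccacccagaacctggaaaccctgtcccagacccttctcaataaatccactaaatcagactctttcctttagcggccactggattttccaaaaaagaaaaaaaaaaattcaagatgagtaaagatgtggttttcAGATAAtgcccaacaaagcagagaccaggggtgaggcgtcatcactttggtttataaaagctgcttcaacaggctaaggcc
Il1rl1: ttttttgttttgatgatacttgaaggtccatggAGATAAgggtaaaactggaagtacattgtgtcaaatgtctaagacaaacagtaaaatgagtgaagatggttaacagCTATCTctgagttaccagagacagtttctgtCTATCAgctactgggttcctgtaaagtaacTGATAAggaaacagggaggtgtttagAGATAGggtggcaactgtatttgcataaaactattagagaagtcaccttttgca
Ecm1: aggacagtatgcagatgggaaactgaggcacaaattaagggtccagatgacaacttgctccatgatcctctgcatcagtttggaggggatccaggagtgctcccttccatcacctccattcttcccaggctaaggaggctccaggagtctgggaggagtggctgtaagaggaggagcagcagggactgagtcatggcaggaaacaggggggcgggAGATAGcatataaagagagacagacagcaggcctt

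Each library held 82630541 to 86675591 UMIs in the cells kept. Median depth was 3921.5 to 5372 UMIs per Treg-origin cell, 7039.5 to 9013 per CD4 cell and 8887 to 11901 per CD8 cell, so shares of cells with a UMI are also given after each cell was thinned to 2000 UMIs. Treg-origin cells bore the marks of their label: Foxp3, the gene of the master regulator of the Treg lineage, averaged 56.0 ± 7.02 CPM (the gene's UMIs in a class, scaled to the same total for every class and library; SD, n = 4 libraries) in Treg-origin cells and 1.61 ± 0.458 CPM in CD4 cells, and edgeR called 7 of 8 Treg markers higher in the Treg-origin class. A Foxp3 UMI was found in 16.9% to 26.5% of Treg-origin cells. The T cell receptor and CD3 genes were present in all classes. By edgeR Cd8a and Cd8b1 were higher and Cd4 was lower in Treg-origin than in CD4 cells, but these genes chose the CD4 class. In all, 131 cell barcodes were found in more than 1 library (0.364% of distinct barcodes, 16 to 27 for each pair of libraries), and 1 of them marked a Treg-origin cell in both. The members were chosen with earlier values of these classes known, so their levels, folds and co-detection are descriptions and carry no p-value. Poisson and binomial intervals cover counting error only, and in sums over cells fewer expressing cells and less RNA per cell cannot be told apart.

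Cyp11a1 and Ecm1 set Treg-origin cells furthest apart from conventional CD4 cells, each about an order of magnitude higher, followed by Cysltr1, Il4, Gata3 and Il1rl1, while Il13 went against the rest. The edgeR estimate over the 4 libraries was above 0 for 6 of 7 members, and all 6 were among the genes called higher. In that comparison 42% of 10773 genes were called, 21.5% higher and 20.5% lower, and since the genes were picked on these classes nothing is read from the count. The median log2 fold change was 1.58 over the members and 0.01 over all genes tested.

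**Figure D1:**
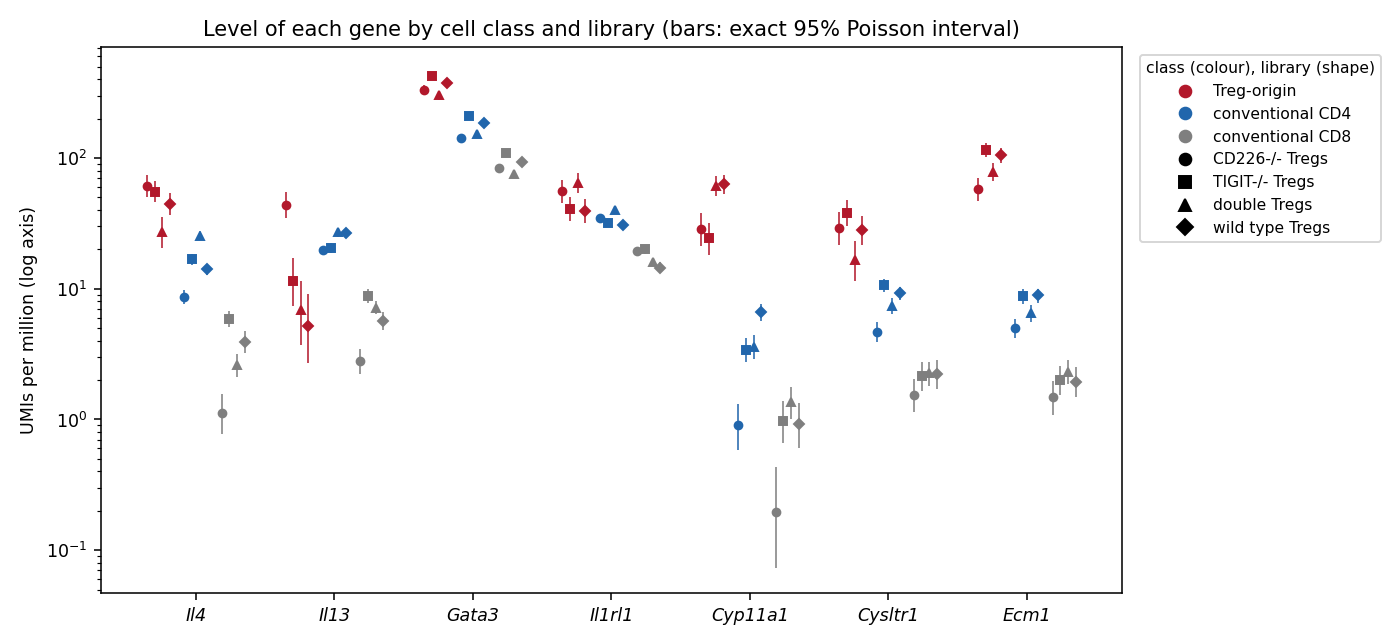
Level of each gene (CPM, log axis) in Treg-origin, CD4 and CD8 cells of each library; points are libraries and bars exact 95% Poisson intervals. Cyp11a1 and Ecm1 lie at 24.4 or more in every Treg-origin point and at 8.88 or less in every CD4 and CD8 point, while the Il13 points of Treg-origin and CD4 cells overlap.

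Cyp11a1 stood at 28.6 (CD226-knockout), 24.4 (TIGIT-knockout), 61.5 (double-knockout) and 63.3 CPM (wild-type) in Treg-origin cells. The CD4 cells beside them, in the same order of libraries, had 0.899, 3.41, 3.58 and 6.59 CPM, and CD8 cells 0.197, 0.976, 1.35 and 0.922 CPM. No Treg-origin value overlapped a CD4 value, and the wild-type library was highest in both classes. The log2 fold change of Treg-origin over CD4 cells was 3.67, a 12.7-fold difference, with 2.52 to 3.96 in single libraries (log2 of CPM + 1, so lower for rare genes than the edgeR estimate). A Cyp11a1 UMI was found in 5.63% to 15.0% of Treg-origin cells, 0.549% to 2.47% of CD4 cells and 0.192% to 0.81% of CD8 cells. After thinning these shares were 2.72% to 7.93%, 0.0972% to 0.95% and 0.0387% to 0.139%.

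Ecm1 reached 57.8, 115, 78.1 and 105 CPM in Treg-origin cells of the same libraries, 4.98, 8.77, 6.49 and 8.88 CPM in CD4 cells and 1.48, 2.02, 2.30 and 1.95 CPM in CD8 cells. In both Treg-origin and CD4 cells the CD226-knockout and double-knockout libraries were the lowest. Its log2 fold change was 3.59 (3.30 to 3.57 by library). Thinned shares were 9.84% to 20.7% in Treg-origin cells, 1.20% to 2.19% in CD4 cells and 0.278% to 0.472% in CD8 cells.

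Cysltr1 was found at 29.2, 38.2, 16.6 and 28.2 CPM in Treg-origin cells, at 4.70, 10.6, 7.43 and 9.23 CPM in CD4 cells and at 1.55, 2.15, 2.25 and 2.22 CPM in CD8 cells. Treg-origin cells were higher in each library, with a log2 fold change of 1.80 (1.06 to 2.40). Of Treg-origin cells 2.82% to 5.71% kept a Cysltr1 UMI after thinning, against 0.972% to 2.15% of CD4 cells.

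The transcription factor gene Gata3 had 331, 425, 301 and 372 CPM in Treg-origin cells, 142.5, 209, 151 and 184 CPM in CD4 cells and 84.6, 110, 75.6 and 92.9 CPM in CD8 cells. Its fold was close to 2 in every library, with a log2 fold change of 1.05 (0.99 to 1.21). As found, the share of cells with a Gata3 UMI barely separated the classes, at 55.3% to 67.6% in Treg-origin cells and 59.0% to 68.0% in the deeper CD4 cells. At equal depth it was 35.03% to 49.9% against 23.0% to 32.1%.

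The IL-33 receptor gene Il1rl1 showed the smallest difference above 0, with 56.1, 41.1, 64.9 and 39.5 CPM in Treg-origin cells, 35.04, 31.9, 40.2 and 30.7 CPM in CD4 cells and 19.3, 20.004, 16.0 and 14.5 CPM in CD8 cells. Treg-origin cells were higher in all 4 libraries (log2 fold change 0.52, 0.35 to 0.68), though the lowest Treg-origin value lay below the highest CD4 value. The share of positive cells ran the other way, 12.3% to 22.9% of Treg-origin against 19.3% to 23.5% of CD4 cells, and after thinning 6.23% to 11.1% against 6.12% to 7.26%; no order is read from it.

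Il4 was present at 61.2, 55.4, 27.3 and 44.7 CPM in Treg-origin cells, at 8.61, 16.8, 25.4 and 14.1 CPM in CD4 cells and at 1.12, 5.89, 2.60 and 3.93 CPM in CD8 cells. All Treg-origin values exceeded all CD4 values, but in the double-knockout library only narrowly, so the log2 fold change of 1.58 ran from 0.10 to 2.69 by library. An Il4 UMI was found in 6.12% to 11.7% of Treg-origin, 2.91% to 6.65% of CD4 and 0.769% to 2.31% of CD8 cells, and after thinning in 1.98% to 5.43%, 1.26% to 2.54% and 0.271% to 0.556%. CD8 cells are no pure measure of free RNA, since 13 of them held 5 or more Il4 UMIs.

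Il13 was the exception, at 44.1, 11.5, 6.83 and 5.20 CPM in Treg-origin cells, 19.7, 20.4, 26.96 and 26.8 CPM in CD4 cells and 2.80, 8.85, 7.16 and 5.67 CPM in CD8 cells. Only the CD226-knockout library had more in Treg-origin than in CD4 cells, and the log2 fold change of -0.62 (-2.16 to 1.12) was not called. An Il13 UMI was seen in 8, 7, 4 and 4 Treg-origin cells, which is 2.41%, 1.52%, 1.06% and 1.09%. In the CD8 cells of the same libraries the shares were 1.15%, 1.65%, 1.05% and 1.91%, and after thinning 1.59%, 0.494%, 0.565% and 0.567% of Treg-origin cells stood against 0.425%, 0.625%, 0.295% and 0.479% of CD8 cells. Outside the CD226-knockout library no order is read from these few cells. In CD4 cells the share with Il13, at 2.16% to 4.18% as found, was above that of CD8 cells in each library.

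Conventional CD4 cells had higher levels than CD8 cells for 7 of 7 members in all 4 libraries, with log2 fold changes of 2.29 for Il4, 1.997 for Cyp11a1, 1.95 for Il13, 1.93 for Cysltr1, 1.87 for Ecm1, 0.98 for Il1rl1 and 0.91 for Gata3. All 7 were called, beside 46.5% of 11487 genes, 23.7% higher and 22.9% lower, and nothing is read from the count. Levels descended from Treg-origin through CD4 to CD8 cells in each library for 6 of the 7 genes, and for Il13 in the CD226-knockout library alone.

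The cells nearest the antibody cuts were set side by side. The 143 Treg-origin cells within 0.2 of the cut at -0.6 had 51.2 CPM of Il4, 51.2 of Cyp11a1, 86.2 of Ecm1 and 36.4 of Cysltr1, and the 110 cells just outside it 74.5, 68.4, 80.6 and 44.1 CPM. Il13 was at 5.39 CPM just inside and 47.1 CPM just outside, Gata3 at 446 and 407 CPM and Il1rl1 at 43.1 and 38.0 CPM. Ccr9 was seen in 44.1% of the cells just inside and 43.6% of those just outside, against 27.3% of all Treg-origin cells, so Ccr9 detection moved with the antibody ratio. The 456 CD4 cells within 0.2 of the cut at 2.2 had 23.4 CPM of Cysltr1 and 16.2 of Ecm1, and 285 Cd4-dominant cells just outside it 18.7 and 13.7 CPM.

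The other genes of the type 2 programme were followed with a list of 50 non-members, of which 41 passed the filter on low counts in the comparison of Treg-origin with CD4 cells. With edgeR's quasi-likelihood test and Benjamini-Hochberg adjustment over all genes, 22 were higher in Treg-origin cells, 8 were lower and 11 were not called. Of all genes 21.5% were higher and 20.5% lower. The median log2 fold change was 0.45, against 0.01 over all genes. Il2ra, also on the list of Treg markers, is among the 22, and the part of Treg identity in these calls was not tested. Among cytokines, 3 of 5 tested were higher. Areg, which encodes the tissue-repair factor amphiregulin, averaged 42.1 ± 14.1 CPM in Treg-origin cells and 2.57 ± 2.43 CPM in CD4 cells (SD, n = 4 libraries; log2 fold change 4.20, edgeR adjusted p = 2.49e-06, higher in 4 of 4 libraries). Il10, the suppressive cytokine, averaged 52.2 ± 13.1 and 10.4 ± 2.33 CPM (2.30, edgeR adjusted p = 6.97e-08, 4 of 4). The follicular helper cytokine gene Il21 fell to 3.05 ± 4.80 CPM in Treg-origin cells, against 16.3 ± 4.83 CPM in CD4 cells (-2.50, edgeR adjusted p = 0.000159, lower in 4 of 4). Il5, Il9 and Il3, the other classical type 2 cytokine genes on the list, were too low to be tested in this comparison.

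Of 13 receptor genes tested 9 were higher and 1 was lower. Chemokine receptor genes of type 2 cells were among them: Ccr3, the eotaxin receptor, averaged 10.3 ± 6.44 CPM in Treg-origin cells and 1.75 ± 0.347 CPM in CD4 cells (log2 fold change 2.47, edgeR adjusted p = 5.93e-05), and Ccr4 9.99 ± 1.95 and 2.75 ± 0.446 CPM (1.84, edgeR adjusted p = 6.57e-06). The IL-9 receptor gene Il9r averaged 12.1 ± 4.77 CPM in Treg-origin cells and 2.50 ± 0.911 CPM in CD4 cells (2.25, edgeR adjusted p = 1.76e-05). The lower receptor gene was Il18r1, which encodes a chain of the IL-18 receptor of Th1 cells, with 78.8 ± 30.4 and 148 ± 19.8 CPM (-0.97, edgeR adjusted p = 8.96e-06). Among 23 transcription factors and signalling genes 10 were higher and 6 lower. Nfil3, a basic leucine zipper factor, led those higher (1.85, edgeR adjusted p = 2.15e-07), and Tcf7 (-1.22), Zfpm1 (-1.02), whose product FOG-1 restrains GATA factors, Ikzf1 (-0.74) and Bhlhe40 (-0.71) led those lower. Markers of other cells were also higher in the Treg-origin class: edgeR called 2 of 2 tested B cell markers, 3 of 4 erythroid, 3 of 5 neutrophil and 4 of 8 macrophage and monocyte markers. Summed B cell markers ran from 190 to 708 CPM in Treg-origin cells and from 70.8 to 84.4 CPM in CD4 cells, with 3 or 4 of 5 detected. The 6 neutrophil markers ran from 3.90 to 1796 CPM in Treg-origin cells, 75.0% or more of it in 5 cells, and from 3.45 to 132 CPM in CD4 cells. The 6 eosinophil markers, which include Ccr3, ran from 5.20 to 17.7 and from 2.91 to 3.98 CPM. In Treg-origin cells 42.9% to 58.3% of their UMIs lay in 5 cells, and in the wild-type library Ccr3 alone was detected. The 12 basophil and mast cell markers ran from 4.88 to 32.6 and from 3.22 to 8.65 CPM. In Treg-origin cells Hdc had 143 UMIs, Cd200r3 9, Cpa3 5, Gata2 and Kit 1 each, and Mcpt8, Ms4a2 and Fcer1a 0. Ms4a2 and Fcer1a had 0 in CD4 and CD8 cells too, and Mcpt8 7 and 14, so nothing is read from these zeros. The part of these other cell types in the list results was not tested. Of 6 Th1 genes tested 4 were lower, 1 (Cxcr3) was higher and 1 (Eomes) was not called. Among the lower was Ifng, which encodes interferon gamma, with 83.2 ± 35.2 CPM in Treg-origin cells and 271 ± 19.8 CPM in CD4 cells (-1.75, edgeR adjusted p = 4.43e-07).

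**Figure D2:**
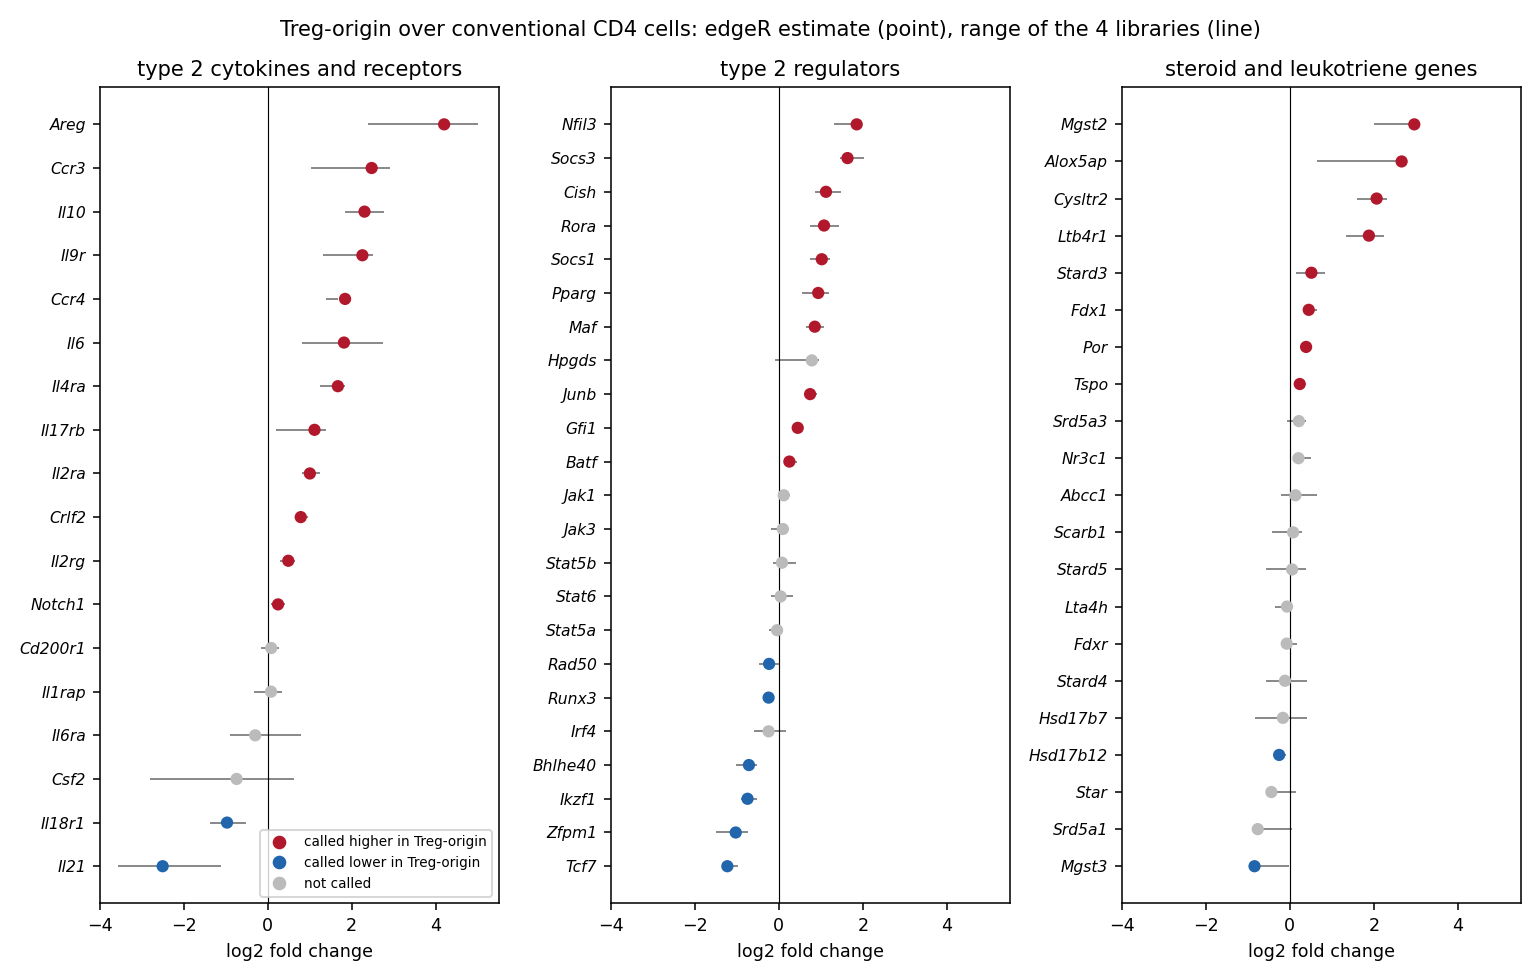
Log2 fold change of Treg-origin over CD4 cells for the tested genes of the type 2, steroid and leukotriene lists; points are edgeR estimates, lines the range of the 4 libraries, red called higher, blue called lower, grey not called. Of the type 2 genes 22 of 41 are red, and of the leukotriene genes 4 of 7, where 21.5% of all genes tested were called higher.

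The steroid list of 24 genes showed no counterpart of the size of the Cyp11a1 difference. Of 14 tested, 4 were higher, 1 was lower and 9 were not called, with a median log2 fold change of 0.06. Fdx1, whose product ferredoxin passes electrons to the Cyp11a1 enzyme, averaged 107 ± 6.27 CPM in Treg-origin cells and 77.7 ± 6.55 CPM in CD4 cells (0.45, edgeR adjusted p = 0.000174). Stard3, a cholesterol carrier gene, was higher by 0.51, Por, which encodes the electron donor of microsomal cytochromes P450, by 0.38 and Tspo, which encodes a mitochondrial outer membrane protein, by 0.23; Hsd17b12 was lower by a log2 fold change of -0.26. Star, which encodes the carrier of cholesterol into mitochondria, averaged 0.938 ± 0.569 and 1.30 ± 0.113 CPM and was not called. The genes of the later steps, Cyp17a1, Hsd3b1 and Hsd3b6 among them, were below the filter.

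Leukotriene genes included receptors and enzymes. Of 7 tested among 15 listed, 4 were higher in Treg-origin cells and 1 was lower, with a median log2 fold change of 1.88. Cysltr2, the other cysteinyl leukotriene receptor gene, averaged 22.5 ± 2.06 CPM in Treg-origin cells and 5.39 ± 0.908 CPM in CD4 cells (2.06, edgeR adjusted p = 4.91e-07). Ltb4r1, a receptor gene for leukotriene B4, averaged 31.5 ± 6.92 and 8.42 ± 1.20 CPM (1.88, edgeR adjusted p = 6.05e-07). Mgst2, whose product can make leukotriene C4, averaged 19.1 ± 5.15 and 2.45 ± 0.652 CPM (2.96, edgeR adjusted p = 1.34e-07), and Alox5ap, which encodes the activator of 5-lipoxygenase, 4.43 ± 2.98 and 0.711 ± 0.274 CPM (2.66, edgeR adjusted p = 0.00025). Mgst3 was lower (-0.84, edgeR adjusted p = 0.0435), and Alox5 itself was not tested.

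Between CD4 and CD8 cells 27 of 43 tested genes of the type 2 list were higher in CD4 cells (edgeR). Another 5 were lower and 11 were not called, beside 23.7% of all genes higher and 22.9% lower. Areg (2.48), Ccr4 (2.37), Il9r (2.12), Il6 (1.85), Il17rb (1.84) and Il21 (1.82) had the largest log2 fold changes, each higher in 4 of 4 libraries. The steroid list split evenly, with 3 of 14 higher, led by Fdx1 (0.35), and 3 lower, led by Scarb1 (-0.38). Of 9 leukotriene genes 1 was higher, the transporter gene Abcc1 (0.67), and 3 were lower: Mgst2 (-1.31), Mgst3 (-0.69) and Cysltr2 (-0.44). Cysltr1, at 4.70 to 10.6 CPM in CD4 and 1.55 to 2.25 CPM in CD8 cells, thus went in the opposite direction to the other cysteinyl leukotriene receptor gene between these classes.

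Before thinning, more than 50% of the Treg-origin cells with Il13, Cysltr1, Il4 or Cyp11a1 also had Ccr9. A Ccr9 UMI was present in 27.3% of Treg-origin cells (80, 127, 94 and 118 cells in CD226-knockout, TIGIT-knockout, double-knockout and wild-type libraries), and these held 60.9% of the cells with Il13, 60.3% of those with Cysltr1, 59.5% with Il4, 51.7% with Cyp11a1, 39.6% with Ecm1, 39.4% with Gata3 and 35.5% with Il1rl1. Cells with Ccr9 were deeper, with medians of 5406, 5380, 5968 and 6095 UMIs against 4192, 3515, 4323 and 5131 UMIs in those without. As found, 5 of 7 members had a UMI in a larger share of Ccr9+ than Ccr9- cells in all 4 libraries. After thinning 3 of 7 did. Thinning also called Ccr9 anew, which left 48, 82, 68 and 71 Ccr9+ cells, so depth and the new calls cannot be told apart in this fall. Among cells of 3000 to 10000 UMIs, with Ccr9 called as found, the same members as before thinning were higher in all libraries. Median depths there were 5467 to 5523 UMIs with Ccr9 and 4564 to 5280 UMIs without it.

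**Figure D3:**
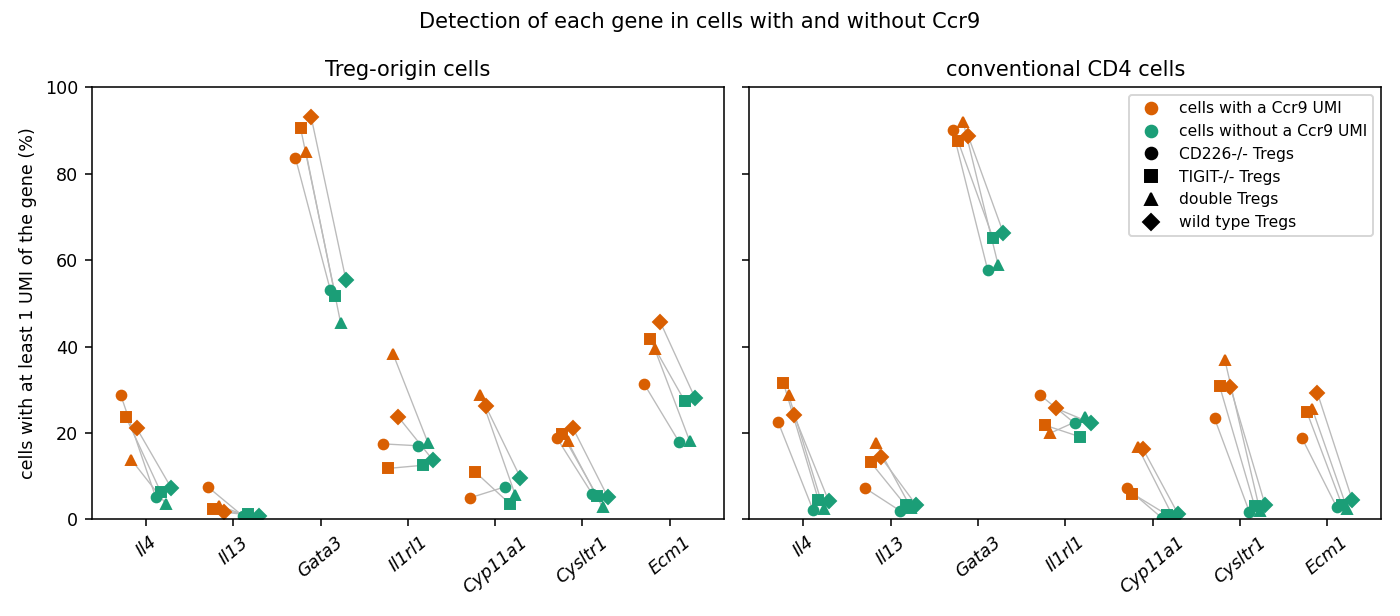
Share of cells with at least 1 UMI of each gene among cells with and without a Ccr9 UMI, in Treg-origin and conventional CD4 cells; points are libraries. Il4 lies at 13.8% to 28.8% with Ccr9 and at 3.55% to 7.23% without it in Treg-origin cells, while Il1rl1 overlaps.

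Il4 was detected in 28.8%, 23.6%, 13.8% and 21.2% of Ccr9+ Treg-origin cells and in 5.16%, 6.27%, 3.55% and 7.23% of Ccr9- ones. Its odds ratios of 3.45 to 7.42 became 1.51 to 3.25 after thinning, and were 3.54 to 6.48 among cells of 3000 to 10000 UMIs. Cysltr1 behaved alike, with 18.8%, 19.7%, 18.1% and 21.2% of Ccr9+ cells and 5.95%, 5.37%, 2.84% and 5.22% of Ccr9- cells, and odds ratios of 3.65 to 7.56 that thinning left at 2.27 to 10.8. Gata3 was seen in 83.8% to 93.2% of Ccr9+ and 45.4% to 55.4% of Ccr9- cells, with odds ratios of 4.54 to 11.1, and 2.08 to 4.02 after thinning. These 3 genes were the ones higher in all 4 libraries after thinning.

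Ecm1 and Cyp11a1 were less tied to Ccr9. Ecm1 was found in 31.3%, 41.7%, 39.4% and 45.8% of Ccr9+ cells and in 17.9%, 27.5%, 18.1% and 28.1% of Ccr9- cells, but after thinning the TIGIT-knockout library went the other way, at 12.2% and 20.1%. Among cells of 3000 to 10000 UMIs, with Ccr9 called as found, that library had 41.5% and 26.9%. Cyp11a1 was found in 5%, 11.02%, 28.7% and 26.3% of Ccr9+ and 7.54%, 3.58%, 5.67% and 9.64% of Ccr9- cells, so as found the CD226-knockout library, with 4 positive cells among 80, ran against the other libraries. After thinning it was in 2.08% of Ccr9+ and 4.12% of Ccr9- cells there, and in 2.44% and 2.79% in the TIGIT-knockout library. The double-knockout (8.82% and 4.55%) and wild-type (11.3% and 7.09%) libraries kept a higher share with Ccr9. Il1rl1 shares were 17.5%, 11.8%, 38.3% and 23.7% with Ccr9 and 17.1%, 12.5%, 17.7% and 13.7% without it, so the gap was widest in the double-knockout and wild-type libraries. Il13, in 23 cells in all, was seen in 14 with Ccr9 and 9 without.

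Treg identity did not follow the same line. Foxp3 was found in 25.0%, 23.6%, 30.9% and 23.7% of Ccr9+ cells and in 26.98%, 14.3%, 21.6% and 24.9% of Ccr9- cells, higher in 2 of 4 libraries, and Ikzf2, which encodes the Treg factor Helios, was in a smaller share of Ccr9+ cells in 4 of 4. Cells were also sorted by both: 126 had Ccr9 without Foxp3 or Ikzf2, 293 had Ccr9 with one of them, 871 had Foxp3 or Ikzf2 alone and 247 had none. Il4 was seen in 13.9% to 32.0%, 12.9% to 27.3%, 3.74% to 6.57% and 2.94% to 10.6% of those cells, and Cysltr1 in 16.0% to 28.1%, 12.9% to 20%, 2.80% to 6.69% and 1.23% to 7.84%. As found, the lowest share with Ccr9 exceeded the highest without it for both genes, whether or not a Treg marker was seen, but the cells with Ccr9 were deeper. After thinning, Il4 shares of all Ccr9+ and all Ccr9- cells overlapped, with a lowest value of 4.41% (double-knockout) and a highest of 4.95% (TIGIT-knockout), though each library kept its direction. For Foxp3 itself, odds ratios with the members ranged from 0.315 to 1.76 for Il4 and from 1.20 to 1.65 for Il1rl1, the member more often found in Foxp3+ than Foxp3- cells in 4 of 4 libraries. These odds ratios were taken as found and not after thinning, so depth and co-detection cannot be told apart in them.

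Summed over cells, levels in Ccr9+ Treg-origin cells averaged 114 ± 58.1 CPM for Il4, against 17.2 ± 8.79 CPM in Ccr9- cells (SD, n = 4; log2 fold change 2.65, 1.79 to 3.97 by library). Cysltr1 averaged 49.6 ± 11.4 CPM in Ccr9+ and 17.9 ± 8.27 CPM in Ccr9- cells (1.46), and Gata3 563 ± 36.7 and 259 ± 55.3 CPM (1.14). For Cyp11a1 the averages were 67.5 ± 46.8 and 32.0 ± 13.0 CPM (1.12, -1.34 to 1.70), for Ecm1 111 ± 23.9 and 78.4 ± 26.0 CPM (0.51) and for Il1rl1 63.6 ± 29.8 and 44.6 ± 7.44 CPM (0.49, higher in 3 of 4). Of 6 members past the filter 5 were among the 9.72% of 7251 genes called by edgeR, 4.15% higher and 5.57% lower; the rule for the members used this split, so nothing is read from the count. Il13 was below the filter.

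Genes of the wider type 2 list differed in both directions with Ccr9. Of 33 genes tested, 4 were higher in Ccr9+ Treg-origin cells, 7 were lower and 22 were not called, beside 4.15% of all genes higher and 5.57% lower, with a median log2 fold change of -0.03, against 0.02 over all genes. Higher were Il6 (17.2 ± 7.83 CPM in Ccr9+ and 4.75 ± 2.28 CPM in Ccr9- cells, log2 fold change 1.78, edgeR adjusted p = 0.00153), Areg (1.27, 3 of 4 libraries, edgeR adjusted p = 0.00548), Nfil3 (0.94, edgeR adjusted p = 0.000526) and Il4ra (0.85, edgeR adjusted p = 0.0131), which encodes the receptor chain for IL-4 and IL-13. By edgeR 16 of the 33 genes had an unadjusted p under 0.05, and DESeq2 called 0 of the 33 higher. Il18r1 fell to 16.9 ± 9.88 CPM in Ccr9+ cells, against 108 ± 44.4 CPM in Ccr9- cells (-2.68, edgeR adjusted p = 4.08e-09), and Bhlhe40 (-1.01), Zfpm1 (-0.85), Rora (-0.78), Runx3 (-0.66), a factor that opposes GATA3, and Socs3 (-0.50) were lower too. All 4 Th1 genes tested fell, Ifng to 9.22 ± 3.72 CPM in Ccr9+ cells, against 119 ± 51.3 CPM in Ccr9- cells (-3.73, edgeR adjusted p = 7.16e-13), Tbx21 by 1.69 and Cxcr3 by 1.68 on the log2 scale. Of the steroid list Fdx1 was higher (0.40, edgeR adjusted p = 0.0417) and Tspo lower (-0.54), and of the leukotriene list Ltb4r1 was lower (-0.87). Limited to the 598 Treg-origin cells with a ratio below -1.6, 1 gene of the type 2 list was higher and 1 lower.

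Signs of other cells moved with the Ccr9 split. Of 12 basophil and mast cell markers 1 was tested and called, Hdc, which encodes the enzyme of histamine synthesis and which T cells can also express, at 39.8 ± 43.6 CPM in Ccr9+ and 9.23 ± 8.86 CPM in Ccr9- cells. The defining markers Mcpt8, Ms4a2 and Fcer1a had 0 UMIs in Treg-origin cells. They were absent or rare in CD4 and CD8 cells too, so nothing is read from this. The summed list ran from 4.69 to 108 CPM in Ccr9+ and 4.97 to 22.0 CPM in Ccr9- cells. The 4 erythroid markers summed to 4.69 to 3668 CPM in Ccr9+ and 16.2 to 63.6 CPM in Ccr9- cells, with 71.4% or more of the Ccr9+ UMIs in 5 cells. The 6 neutrophil markers summed to 0 to 5.46 CPM in Ccr9+ and 5.46 to 2861 CPM in Ccr9- cells. Of 10 T cell markers 9 were tested, of which 6 were lower in Ccr9+ cells, with summed levels of 5565 to 7065 CPM and 7716 to 8523 CPM. Their part in the Ccr9 results was not tested.

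In conventional CD4 cells, where 5.71% had Ccr9 (111, 234, 125 and 202 cells), the members again went with Ccr9. Cysltr1 was found in 23.4%, 30.8%, 36.8% and 30.7% of Ccr9+ CD4 cells and in 1.74%, 3.11%, 2.05% and 3.38% of Ccr9- ones, with odds ratios of 12.7 to 27.9. Cyp11a1 was found in 7.21%, 5.98%, 16.8% and 16.3% of Ccr9+ and 0.301%, 1.05%, 0.818% and 1.37% of Ccr9- CD4 cells. For Il4 the odds ratios were 7.31 to 16.1, for Ecm1 7.87 to 13.5, for Gata3 3.77 to 8.003 and for Il13 3.85 to 7.55. Here 6 of 7 members were more often found in Ccr9+ cells in all 4 libraries, all but Il1rl1 (0.808 to 1.42). After thinning 4 of 7 were (Il4, Gata3, Cysltr1 and Ecm1), since in the CD226-knockout library Il13 and Cyp11a1 were then seen in 0% of Ccr9+ CD4 cells and in 0.757% and 0.0987% of Ccr9- ones. Median depths differed less than in Treg-origin cells, at 7462.5 to 10495 UMIs in Ccr9+ and 7022.5 to 8934.5 UMIs in Ccr9- cells. Foxp3 was seen in 2.48% or less of Ccr9+ CD4 cells in each library.

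The members also fell together in single cells. In Treg-origin cells Gata3 was found in 136 of 147 cells with Cyp11a1, in 137 of 153 with Il4 and in 22 of 23 with Il13, where independence would give 90.4, 94.1 and 14.1. Il4 and Il13 shared 13 cells, against 2.29 (odds ratio 12.8), and Il1rl1 and Cysltr1 50 cells, against 23.2 (3.26). After thinning the odds ratio was 14.4 for Il4 with Il13, 3.30 for Il1rl1 with Cysltr1, 2.80 for Gata3 with Cyp11a1 and 0.968 for Cyp11a1 with Cysltr1, which had been 1.97. In CD4 cells the highest odds ratios were those of Cyp11a1 with Cysltr1 (73 cells, against 7.14; odds ratio 19.9), Il4 with Il13 (152, against 19.0; 16.5), Il4 with Cyp11a1 (66, against 8.10; 14.2) and Cysltr1 with Ecm1 (150, against 22.1; 12.6), whereas Il4 with Il1rl1 had 0.952. Of Treg-origin cells 44.1% to 52.9% had none of the 6 members other than Gata3, and 4.11% to 7.36% had 3 or more of them. Deeper cells show more genes of any kind, so ratios above 1 as found hold depth as well.

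How many cells carried each gene differed sharply. Of 382 Il4 UMIs in Treg-origin cells 52.1%, and of 127 Il13 UMIs 80.3%, came from 14 cells with at least 5 UMIs of either gene. A single CD226-knockout cell held 52 Il4 and 49 Il13 UMIs. All 14 had T cell receptor or CD3 transcripts, 10 had Ccr9, 5 Foxp3, 7 Ikzf2 and 1 any basophil or mast cell marker. In CD4 cells 117 such cells held 61.6% of Il4 and 81.8% of Il13 UMIs, and 33 CD8 cells 55.3% and 76.1%. Gata3 and Ecm1 were spread widely: the 5 cells richest in the gene held 6.64% to 11.5% and 10.7% to 20.8% of a library's UMIs in Treg-origin cells, against 28.1% to 44.0% for Cyp11a1, 30% to 35.3% for Cysltr1, 44.8% to 69.2% for Il4 and 91.7% to 100% for Il13.

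**Figure D4:**
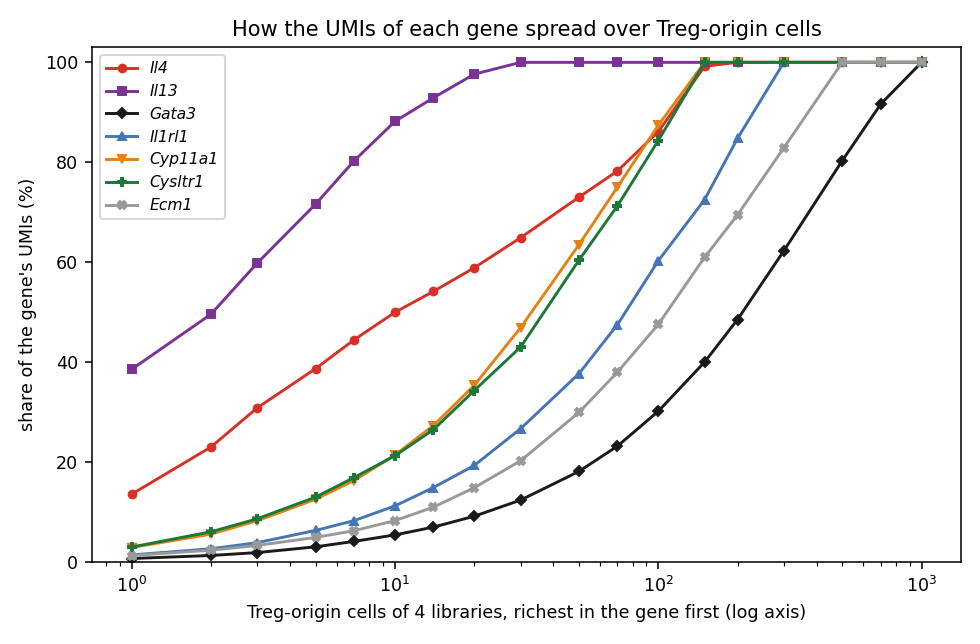
Share of each gene's UMIs (per cent) held by the Treg-origin cells richest in it, counted from the richest cell (log axis, all 4 libraries together). The Il13 and Il4 curves start highest, with 71.7% and 38.7% of their UMIs in the 5 richest cells, against 3.09% for Gata3.

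Without the 5 richest cells of each library Il4 stood at 19.3, 31.0, 10.5 and 18.6 CPM in Treg-origin cells and at 3.88, 12.4, 8.95 and 9.35 CPM in CD4 cells, still higher in each library. Il13 stood at 1.77, 0.973, 0 and 0 CPM in Treg-origin cells, from 3, 2, 0 and 0 UMIs, and at 5.65, 11.1, 12.7 and 18.8 CPM in CD4 cells. The Il13 level of the CD226-knockout library thus rested on few cells.

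The deleted genes were looked at first. Cd226 stood at 4.01 CPM in CD226-knockout and 4.39 CPM in double-knockout Treg-origin cells, and at 32.5 CPM in TIGIT-knockout and 31.2 CPM in wild-type ones, as labelled. Tigit did not divide by its label, at 8.60 CPM in TIGIT-knockout and 5.86 CPM in double-knockout Treg-origin cells, and at 5.15 CPM in CD226-knockout and 9.11 CPM in wild-type ones, from 9 to 21 UMIs. Reads from the 3′ end can lie outside a deleted part, which is not given here, so the Tigit counts do not check the label, and TIGIT status is used only as labelled.

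By genotype label, Cyp11a1 was lower in Treg-origin cells that lacked 1 receptor and near the wild-type level in those that lacked both. Its ratio was 0.452 [0.321, 0.627] for CD226-knockout over wild-type and 0.385 [0.274, 0.532] for TIGIT-knockout over wild-type, each with the exact 95% interval of the counts. For double-knockout over TIGIT-knockout it was 2.52 [1.81, 3.57], over CD226-knockout 2.15 [1.54, 3.05] and over wild-type 0.971 [0.759, 1.24]. Without the 5 richest cells per library the same ratios were 0.350, 0.303, 3.11, 2.69 and 0.943. In the wild-type CD4 cells of these libraries, whose own genotype was the same throughout, Cyp11a1 was at 0.136 in the CD226-knockout and 0.518 in the TIGIT-knockout over the wild-type library, and at 1.05, 3.98 and 0.542 in the double-knockout over the TIGIT-knockout, CD226-knockout and wild-type libraries. These CD4 cells shared recipients with the Treg cells, so Treg genotype and library cannot be told apart in them either. Their Cyp11a1 sums were low, from 26 UMIs in the CD226-knockout to 193 UMIs in the wild-type library. The mean of 3.62 CPM was under the minimum of 5 CPM set for the genes counted. The source of the differences was not tested.

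**Figure D5:**
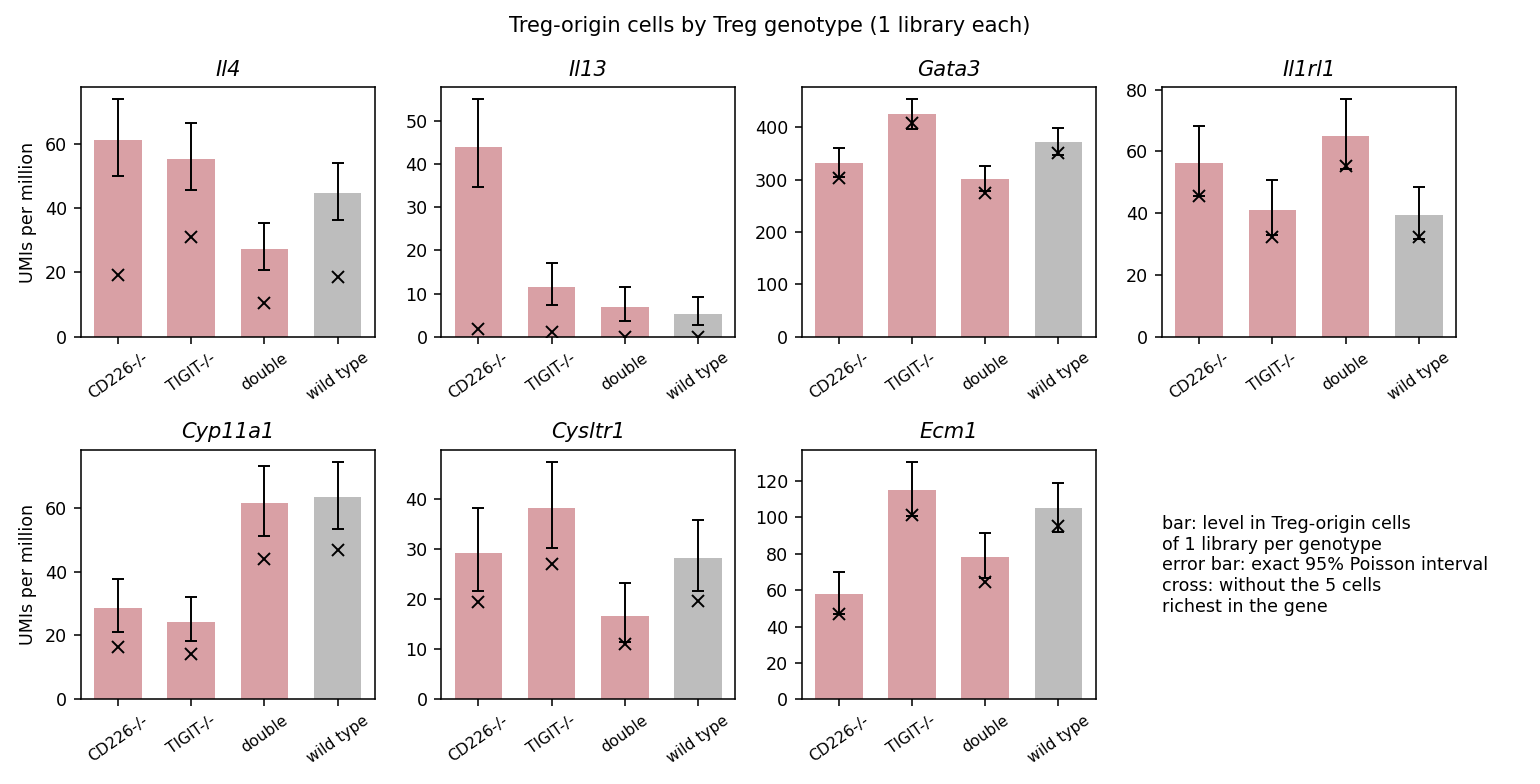
Level of each gene (CPM) in Treg-origin cells by Treg genotype, 1 library each; error bars are exact 95% Poisson intervals and crosses the level without the 5 cells richest in the gene. Cyp11a1 stands at 28.6 and 24.4 in the single knockouts and at 61.5 and 63.3 in double-knockout and wild-type cells, and the Il13 bar of the CD226-knockout library has its cross at 1.77.

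Counted at 1.5-fold with a pseudocount of 1 CPM, 3 of 7 members were past the fold for CD226 loss with TIGIT present (10.2% of 8435 genes), 5 for CD226 loss with TIGIT absent (9.5%), 2 for TIGIT loss with CD226 present (8.03%), 4 for TIGIT loss with CD226 absent (10.5%) and 3 for loss of both (8.87%). Contrasts that share a library are not independent. CD226 loss with TIGIT present gave a ratio of 8.47 [4.58, 17.1] for Il13 and 0.551 [0.432, 0.697] for Ecm1. With TIGIT absent, CD226 loss gave 0.493 [0.352, 0.684] for Il4, 0.434 [0.282, 0.656] for Cysltr1, 0.596 [0.285, 1.20] for Il13 and 1.58 [1.20, 2.10] for Il1rl1. Ecm1 and Gata3 were lower without CD226 in both TIGIT backgrounds, with 0.551 and 0.678 for Ecm1 and 0.890 and 0.709 for Gata3, and Il1rl1 was higher in both, with 1.42 and 1.58. In the wild-type CD4 cells of those libraries these genes went the same way. Ratios there were 0.561 and 0.740 for Ecm1, 0.776 and 0.7225 for Gata3, and 1.14 and 1.26 for Il1rl1.

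The libraries labelled TIGIT-knockout and double-knockout also share a lane code. Set against the libraries with TIGIT, TIGIT loss as labelled gave 2.202 [1.06, 4.83] for Il13 from 24 and 12 UMIs with CD226 present. With CD226 absent it gave 0.446 [0.317, 0.622] for Il4, 0.155 [0.0810, 0.276] for Il13 and 0.569 [0.357, 0.895] for Cysltr1. Loss of both receptors gave 0.612 [0.434, 0.855] for Il4, 0.589 for Cysltr1 and 1.64 [1.25, 2.17] for Il1rl1. In the wild-type CD4 cells of these libraries Il4 also differed past 1.5-fold, in the opposite direction. It was at 2.95 in the double-knockout over the CD226-knockout library and at 1.80 over the wild-type library. In the double-knockout library 5 CD4 cells held 64.9% of the Il4 UMIs. Without the 5 richest cells per library Il4 stood at 8.95 CPM in double-knockout, 3.88 CPM in CD226-knockout and 9.35 CPM in wild-type CD4 cells. The difference from the wild-type library was thus not kept. Among Treg-origin cells with a ratio below -1.6 the log2 ratio of Il4 turned to 2.28 for TIGIT loss with CD226 absent and to 1.38 for loss of both, and among those with more Cd4 than Cd8 UMIs to 0.05 and 0.54. Gata3 stayed within 1.5-fold in all 5 contrasts.

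Across 20 sums of cells (Treg-origin with and without Ccr9, CD4 with and without Ccr9, and CD8, in each library) Pearson's r of log2(CPM + 1) between members was highest, at 0.94, for Gata3 with Cysltr1, for Cyp11a1 with Ecm1 and for Il4 with Gata3. It was 0.69 to 0.77 for Il1rl1 with the members other than Il13, and 0.14 to 0.70 for Il13 with the others. Of 8349 other genes, the 10 with the highest mean r to the 7 members were Ptgir (0.852), Ptpn13 (0.845), P2rx7 (0.841), Satb1 (0.838), Ebi3 (0.835), Gnaq (0.833), Asb2 (0.833), Gpr34 (0.831), Aff4 (0.831) and Tespa1 (0.829), where the median gene had -0.04. Ptgir encodes the prostacyclin receptor, P2rx7 an ATP-gated ion channel, Satb1 a chromatin organiser of T cells and Ebi3 a subunit of IL-27 and IL-35. Sums from 1 library share its depth and free RNA, and the 5 kinds of sums differ in most genes, so these values describe likeness only.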

How the data were processed

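Single-cell RNA was measured with 10x 3′ chemistry in 4 libraries, 1 for each Treg genotype. The deposited matrices hold UMI counts per gene and cell, made with Cell Ranger 3.1.0 on mm10 per the submitters' processing notes, with antibody counts in the same matrices. Of 39421 barcodes, 36140 with 500 or more genes and no more than 10% of UMIs from mitochondrial genes were kept. Doublets were not called. Counts were summed per class and library with Python 3.11.15 and scipy 1.17.1, and classes were compared with edgeR 4.0.16 (quasi-likelihood test with library as a block, Benjamini-Hochberg adjusted p at most 0.05 over all genes passing edgeR's filter) in R 4.3.3. With library as a block, p-values weigh the class difference against how much it varied among the 4 libraries. These differ in Treg genotype and lane code and are not replicates, so that variation holds both. DESeq2 1.42.0, other filters and leaving out each library were alternatives, and the edgeR script was tested on simulated data.

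The 7 genes and the gene lists were chosen with earlier results of these data known. From each list up to 6 called genes in each direction were named by size of change. Star, Alox5, Ikzf2, Hdc and the Th1 genes named were singled out after their values were seen. Genotype ratios compare 1 library with 1 library and carry exact intervals for counting error only (95%). A count of 0 allows up to 3 counts by a 1-sided 95% bound, and the exact intervals given here reach somewhat higher.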

Additional observations from a re-analysis of the deposited data

Results flagged for a closer look

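For 3 of the genes, loss of one receptor went with a higher level when the other was present and a lower one when it was absent, or the reverse, in Treg-origin cells of 1 library per genotype. None of these differences was tested. With CD226 loss the log2 ratio of Il4 with TIGIT absent minus that with TIGIT present was -1.44, and that of Cyp11a1 was 2.42. With TIGIT loss as labelled, the log2 ratio with CD226 absent minus that with CD226 present was 2.42 for Cyp11a1, from the same 4 values, and -3.53 for Il13. In wild-type CD4 cells of the same libraries Cyp11a1 ratios of 0.136 (CD226-knockout over wild-type, 26 and 193 UMIs) and 1.05 (double-knockout over TIGIT-knockout, 91 and 88 UMIs) also differed. The Il13 value rests on the CD226-knockout library, where 5 cells held all but 3 of 77 UMIs. For Il4, 1 cell of that library held 52 of 107 UMIs. The Il4 ratio of CD226-knockout over wild-type was 1.37 [1.04, 1.81], and 1.04 [0.640, 1.68] without the 5 richest cells per library. The higher level of Il4 with TIGIT present was thus not kept without those cells. No group here had 4 or more libraries, so single libraries were not screened as outliers.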

How the results depend on the processing

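The counts of genes called between Treg-origin and CD4 cells stayed within 1.5 times under the 12 settings run; without 1 library they were 1854 to 2007 higher and 1846 to 2056 lower, with 21 type 2 genes higher and 7 to 8 lower. Between CD4 and CD8 cells DESeq2 called 1554 genes higher and 1689 lower (2719 and 2625 by edgeR) and 3 type 2 genes lower, not 5; without the library block 1709 genes and 2 type 2 genes were lower; without 1 library 2260 to 2418 genes were higher, 2082 to 2323 lower, and 23 to 26 type 2 genes higher and 3 to 5 lower (3 without the CD226-knockout or the double-knockout library). Ccr9+ against Ccr9- calls depended most on the setting: DESeq2 called 100 genes higher and 187 lower (301 and 404 by edgeR), with 0 type 2 genes higher and 2 lower. A ratio below -1.6 left 83 and 134 genes, with 1 and 1 type 2 genes; Treg-origin cells with more Cd4 than Cd8 left 124 and 253, with 2 and 4; no library block left 2 type 2 genes higher. Without 1 library 145 (without the double-knockout) to 267 genes were higher and 280 to 382 lower, with 2 to 5 type 2 genes higher (2 without the double-knockout) and 4 to 8 lower (4 without the CD226-knockout).

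Thinning to 2000 UMIs, with Ccr9 called anew on the thinned counts, left 3 members, not 5, more often found with Ccr9 in all libraries. Members past 1.5-fold for TIGIT loss with CD226 present numbered 4 in cells with at least 1000 genes, 4 at the stricter ratio and 1 after thinning (main 2). At the stricter ratio 5 were past it for CD226 loss with TIGIT present and 5 for loss of both (main 3 each), and after thinning 5 for loss of both. The log2 ratio of Il4 turned to 2.28 (TIGIT loss, CD226 absent) and 1.38 (both lost) at the stricter ratio and to 0.052 and 0.54 in cells with more Cd4. Without the 5% of cells with most UMIs that of Il13 turned to 0.61 (CD226 loss, TIGIT absent) and -0.39 (TIGIT loss, CD226 present). Without 1 library 6 (without the double-knockout) to 10 of the 10 most alike genes stayed among the first 10. The stricter ratio, Cd4 limit and left-out libraries use fewer cells or samples; the cause of the other shifts was not tested. No paired analysis was possible because each genotype is 1 library, numbered 1; this holds for the genotype contrasts, while the class comparisons had the library as a block.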
